A study of Mus musculus with 8 samples.

Results

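Cells sorted as Id2-GFP+ pre-CD8 were compared with cells sorted as Id2-GFP+ CDP, with 2 arrays of each, so that 4 of the 8 arrays of the series carry the comparison. CDP stands for common dendritic cell progenitor, a cell of the bone marrow that makes all dendritic cell classes. Pre-CD8 is a progenitor whose gate the labels do not give, named in the field for the CD8 class of conventional dendritic cell, cDC1. All cells were sorted from mouse bone marrow by flow cytometry, and RNA was labelled with a kit for very small inputs and hybridised to Affymetrix mouse gene arrays. The arrays were chosen by their titles, and both groups are the GFP-bright side of a split on a green fluorescent reporter placed behind the Id2 gene (Id2-IRES-GFP). The genotype field of all 4 arrays instead names heterozygous Zbtb46-GFP reporter mice, the same entry in both groups, so the conflict does not separate them. Of the Id2-GFP- arrays used below for contrast, both pre-CD8 arrays carry that same entry, while both CDP arrays carry the Id2-IRES-GFP one. In comparisons that involve the Id2-GFP- CDP arrays, the genotype entry and the group cannot be told apart. No age, sex, treatment or number of animals is given for either group, and nothing says that replicates came from separate animals. The p-values therefore rest on the variation among these arrays alone, and that variation may be technical.

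Dendritic cells arise from marrow progenitors that narrow step by step towards plasmacytoid cells and the conventional classes cDC1 and cDC2. The cDC1 class takes up dead cells and presents their antigens to cytotoxic T cells, and depends on the transcription factors Irf8, Batf3 and Id2. Id2 is a helix-loop-helix protein without a DNA-binding region that holds E proteins such as Tcf4 away from DNA. Genes of monocytes and granulocytes are often transcribed at low level in marrow progenitors that have not yet lost those fates.

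Values are log2 intensities, and differences are pre-CD8 minus CDP on that scale. Array values are given for replicate 1 and then replicate 2. The median over all genes was 6.45, a rough guide to dim signal, since probe sets differ in brightness for the same amount of RNA. Replicate 2 was the brighter array of each group, with a mean intensity of 475 in CDP and 467 in pre-CD8, against 402 and 407 for replicate 1. The spread of log2 values (interquartile range) was also wider on the brighter arrays, 3.73 and 3.65 against 3.15 and 3.30. Across genes the dimmer arrays of the 2 groups correlated at r = 0.992 and the brighter ones at r = 0.990, while the replicates of a group correlated at r = 0.984 for CDP and 0.989 for pre-CD8. Arrays thus resembled their partner of equal brightness in the other group at least as much as their own replicate.

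Of 19938 genes, 0 passed an adjusted p of 0.05 between the groups when the model held the groups alone (limma, 0% of genes). At an unadjusted p under 0.05 there were 643 genes (3.22%), and the smallest adjusted p, 0.0577, was shared by 9 genes. With the array set (brighter or dimmer) as a block, 414 genes passed (2.08%), of which 194 were higher (0.973%) and 220 lower (1.1%) in pre-CD8. The set was defined from the arrays' own mean intensities, and it was brought into the model because few genes separated without it. At an unadjusted p under 0.05 the share was 12.2%. All 414 had the same sign in both array pairs. The test nearly requires this, since its difference is the mean of the 2 pair differences and their disagreement adds to the error. The count was 132 without CDP replicate 2 and 111 without pre-CD8 replicate 2. In what follows, a gene rose or fell only where its adjusted p with the array set was under 0.05. Counts of list members among Id2-GFP+ cells are to be read beside the shares of all genes, 0.973% higher and 1.1% lower.

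The pairs were also read without a model. A difference of log2 1 or more in the same direction in both pairs was found for 85 genes (0.426%), 45 higher (0.226%) and 40 lower (0.201%) in pre-CD8. Of the 85, 81 had passed the test, which uses the same pair differences, so the overlap is no separate support. Atxn1, named for that alone, was the only gene to reach this size in opposite directions (0.00502%), and at log2 0.6 in both pairs 320 genes passed (1.6%). The brighter pair by itself held 381 such genes (1.91%) and the dimmer pair 128 (0.642%). In 72 of the 85 genes the brighter pair gave the larger difference, and the median ratio of the dimmer to the brighter difference was 0.80. Over all genes, which are not independent replicates, the pair differences correlated at r = 0.41 (Spearman's rho 0.19).

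**Figure D1:**
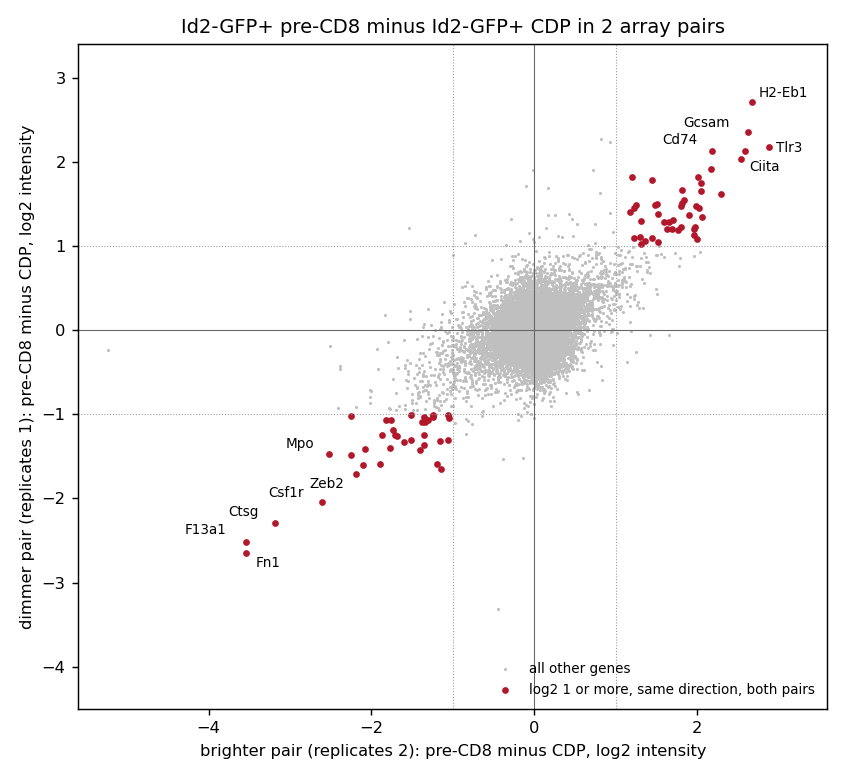
Differences of pre-CD8 from CDP among Id2-GFP+ cells in the brighter array pair (horizontal axis) and the dimmer pair (vertical axis), in log2 intensity, with a point for each of 19938 genes. Red points are the 85 genes past log2 1 (dotted lines) in the same direction in both pairs, led by H2-Eb1 and Tlr3 on the higher side and Fn1 and F13a1 on the lower side.

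The antigen presentation genes of MHC class II led the genes that were higher in pre-CD8. Class II molecules show peptides to helper T cells, and 7 of 11 measured genes of the pathway rose while 0 fell, with a median difference of 1.09 against -0.01 for all genes. H2-Eb1, which encodes a class II beta chain, stood at 9.07 and 9.82 in CDP and 11.78 and 12.48 in pre-CD8. Both pre-CD8 arrays lay above both CDP arrays, and the difference was 2.69 ± 0.17 (SE, adjusted p = 5.06e-05), or 6.44-fold. H2-Ab1, the beta chain of the other class II molecule, stood at 10.77 and 11.06 in CDP and 12.59 and 13.07 in pre-CD8. Again the groups did not overlap, with a difference of 1.92 ± 0.12 (SE, adjusted p = 5.06e-05). Cd74, the invariant chain that guides class II molecules to endosomes, measured 9.99 and 10.29 in CDP and 12.12 and 12.48 in pre-CD8. Its difference was 2.16 ± 0.24 (SE, adjusted p = 0.00166), and it was almost equal in the pairs, at 2.13 in the dimmer and 2.19 in the brighter. Ciita, the transactivator that drives class II transcription, stood at 7.22 and 7.61 in CDP and 9.25 and 10.14 in pre-CD8. Both CDP arrays were below both pre-CD8 arrays, and the difference was 2.29 ± 0.24 (SE, adjusted p = 0.00115).

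Of the genes tied to peptide loading in the same pathway, H2-Ob rose by 1.09 ± 0.12 (SE, adjusted p = 0.00157). H2-Aa, a class II alpha chain, and H2-Oa, the partner of H2-Ob, were picked after their values were seen and rose by 1.62 ± 0.19 and 1.08 ± 0.17 (SE). The other 4 members, Ifi30, Ctss, H2-DMa and Marchf1, differed by 0.06 to 0.37 without passing. H2-Aa stood at 10.90 and 11.66 in CDP and 12.68 and 13.11 in pre-CD8, so class II signal was present in both groups. With each array left out in turn, 6 to 8 members passed.

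Of 3 class II promoters searched, those of H2-Eb1 and H2-Aa are printed because they held matches, while that of H2-Ob held none of the motifs named here. They are given as the 250 bases before the start of transcription in RefSeq (GRCm38.p6). H2-Eb1 is on the plus strand at chr17:34305617-34305866 and H2-Aa on the minus strand at chr17:34287824-34288073, each read along its gene. Capitals mark matches on either strand to the E-box form CAGCTG, the site type of E proteins, and to the Y box CTGATTGG of class II promoters. The Y box was added to the search after the values were seen.
H2-Eb1: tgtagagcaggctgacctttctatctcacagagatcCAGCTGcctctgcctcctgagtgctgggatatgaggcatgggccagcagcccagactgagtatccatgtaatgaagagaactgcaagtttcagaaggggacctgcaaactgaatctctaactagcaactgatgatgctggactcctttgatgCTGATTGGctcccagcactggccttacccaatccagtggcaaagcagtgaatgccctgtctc
H2-Aa: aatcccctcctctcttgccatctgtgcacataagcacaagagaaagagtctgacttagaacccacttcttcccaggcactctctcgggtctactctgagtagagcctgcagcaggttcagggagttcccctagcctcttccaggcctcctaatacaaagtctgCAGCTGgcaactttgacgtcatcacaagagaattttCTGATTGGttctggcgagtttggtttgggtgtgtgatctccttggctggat
The H2-Eb1 promoter held CAGCTG at bases 214 to 209 before the start and CTGATTGG at 62 to 55. In H2-Aa they lay at 87 to 82 and at 51 to 44. Of 32851 promoters of this length in the table, 13% held CAGCTG and 3.83% held CTGATTGG. The other motifs searched were the E-box form CACCTG (17.2% of promoters), the PU.1-IRF composite (2.3%), the interferon-stimulated element (2.98%) and the PU box GAGGAAGT (2.44%), and none of them matched in either sequence. The letters mark matches only, and binding was not measured.

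Markers of the cDC1 class were next. Of 21 measured, 10 rose and 0 fell, with a median difference of 0.81, and 17 were higher in both pairs, as 26.5% of all genes were. Tlr3, the endosomal receptor for double-stranded RNA that is high in mature cDC1, stood at 7.30 and 7.75 in CDP and 9.48 and 10.63 in pre-CD8. Both pre-CD8 arrays were above both CDP arrays, and the difference was 2.53 ± 0.25 (SE, adjusted p = 0.000776), or 5.77-fold. Gcsam, a signalling adaptor, stood at 6.27 and 6.61 in CDP and 8.63 and 9.23 in pre-CD8. Neither CDP array reached the lower pre-CD8 array, with a difference of 2.49 ± 0.24 (SE, adjusted p = 0.000615). Batf3, the transcription factor that sustains Irf8 in this lineage, stood at 8.85 and 8.41 in CDP and 10.04 and 10.18 in pre-CD8. The CDP replicates differed by more than the pre-CD8 replicates did, yet the groups stayed apart, at 1.48 ± 0.15 (SE, adjusted p = 0.000903).

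Wdfy4, needed by cDC1 for presenting cell-associated antigen, stood at 11.52 and 11.81 in CDP and 12.22 and 12.72 in pre-CD8 and rose by 0.81 ± 0.07 (SE, adjusted p = 0.00051). Snx22, a sorting nexin, rose by 1.54 ± 0.21 (SE, adjusted p = 0.00436), and Cd226, an adhesion receptor, by 1.30 ± 0.19 (SE, adjusted p = 0.00701). The defining surface markers of mature cDC1 behaved less uniformly. Clec9a, the receptor for exposed actin of dead cells, stood at 9.01 and 9.52 in CDP and 9.78 and 10.55 in pre-CD8. Every pre-CD8 array was above every CDP array, but the difference of 0.90 ± 0.33 (SE, adjusted p = 0.259) did not pass. With single arrays left out it ranged from 0.34 (without pre-CD8 replicate 2) to 1.46 (without pre-CD8 replicate 1). In limma on the 4 Id2-GFP+ arrays alone, with the array set, it passed (adjusted p = 0.000409). That fit leaves fewer residual degrees of freedom than the main one and leans heavily on the variance prior. On the same arrays without the set, 0 genes passed. Xcr1, the chemokine receptor of mature cDC1, lay between 4.84 and 5.66 on the 4 arrays, below the median of all genes in both groups. Cd8a differed by 0.15 and Itgae by 0.20, and Irf8 stood between 12.62 and 13.01, with a difference of 0.25 ± 0.14 (SE, adjusted p = 0.575). The cDC1 count was 7 without CDP replicate 2 and 6 without pre-CD8 replicate 2. The call of Snx22 ended without CDP replicate 2 (adjusted p = 0.0535) and that of Cd226 without pre-CD8 replicate 2 (0.0943).

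**Figure D2:**
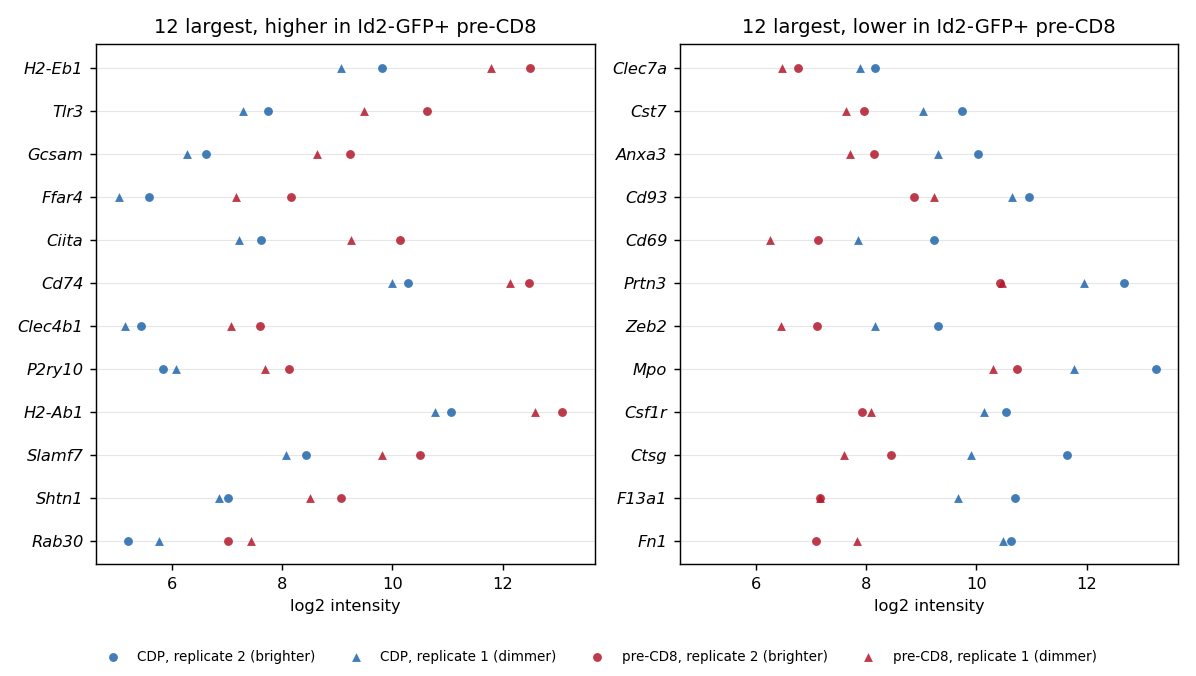
Log2 intensity on each of the 4 Id2-GFP+ arrays for the 12 higher and the 12 lower genes whose smaller pair difference was largest, ordered by the mean difference. Blue symbols are CDP and red are pre-CD8, circles are replicate 2 (brighter) and triangles replicate 1 (dimmer). In each of the 24 genes the 2 groups do not overlap.

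Several of the largest risers belong to no lineage list. Ffar4, a receptor for long-chain fatty acids, stood at 5.04 and 5.58 in CDP and 7.17 and 8.17 in pre-CD8. It was below the median of all genes in CDP and above it in pre-CD8, with a difference of 2.36 ± 0.18 (SE, adjusted p = 0.000173). Clec4b1, a C-type lectin, stood at 5.16 and 5.43 in CDP and 7.07 and 7.60 in pre-CD8, again with separate groups, and rose by 2.04 ± 0.13 (SE, adjusted p = 5.06e-05). P2ry10, a lysophospholipid receptor, rose by 1.95 ± 0.23 (SE, adjusted p = 0.00222). Shtn1, an actin and axon guidance protein, rose by 1.85 ± 0.16 (SE, adjusted p = 0.000343), and Rab30, a small GTPase of the Golgi, by 1.74 ± 0.12 (SE, adjusted p = 7.54e-05). Slamf7, a receptor of the SLAM family, rose by 1.90 ± 0.35 (SE, adjusted p = 0.0212). Its call ended without CDP replicate 1, CDP replicate 2 or pre-CD8 replicate 2, with an adjusted p of up to 0.225. The 24 genes named for size were picked by their smaller pair difference. Keeping a call with an array left out is therefore no separate support for them.

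Among receptors for microbial products, Tlr3 and Cd180, a Toll-like receptor relative, rose and Tlr8 fell, 2 up and 1 down of 17. Cd180 rose by 0.98 ± 0.17 (SE, adjusted p = 0.0151) and Tlr8 fell by 1.10 ± 0.17 (SE, adjusted p = 0.0084). Chemokine and migration receptors split, with 4 of 16 higher (0.973% of all genes) and 2 lower (1.1%). Ccr9, a gut-homing receptor also found on plasmacytoid cells, rose by 1.51 ± 0.25 (SE, adjusted p = 0.0136), and P2ry14, a receptor for nucleotide sugars, by 1.59 ± 0.25 (SE, adjusted p = 0.00927). P2ry14 was uneven, at 5.71 and 6.95 in CDP and 7.95 and 7.88 in pre-CD8. Cxcr3, picked after its values were seen, rose by 1.48 ± 0.28 (SE) and Ccr2, which brings cells out of the marrow, by 0.64 ± 0.12 (SE, adjusted p = 0.022). Cxcr2, a granulocyte receptor, fell by 1.41 ± 0.23 (SE, adjusted p = 0.0113). Calls ended for Ccr2 without CDP replicate 2, pre-CD8 replicate 2 or either Id2-GFP- CDP array (adjusted p up to 0.27), for Ccr9 without CDP replicate 1 or pre-CD8 replicate 2 (0.118), for Cd180 without pre-CD8 replicate 2 or either CDP array (0.119), for Tlr8 without pre-CD8 replicate 2 (0.107), and for Cxcr2 without CDP replicate 2 or pre-CD8 replicate 1 (0.101). Without pre-CD8 replicate 1 the microbial receptor list held 6 risers in place of 2, and without either CDP array or pre-CD8 replicate 2 it held 1. Of the migration list, 1 was higher and 1 lower without pre-CD8 replicate 2, 2 and 0 without CDP replicate 2, 2 and 2 without CDP replicate 1, 2 and 3 without either Id2-GFP- CDP array, and 4 and 1 without pre-CD8 replicate 1.

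The reporter locus and other regulators were read next. Id2 itself stood at 9.77 and 9.26 in CDP and 10.69 and 10.99 in pre-CD8. All 4 arrays were well above the median of all genes and both pre-CD8 arrays were above both CDP arrays, but the difference of 1.33 ± 0.30 (SE, adjusted p = 0.051) was just over the threshold. That call turned on the setting: Id2 passed in 7 of 14 alternatives, among them both scalings (0.0429 and 0.0166) and the 4 Id2-GFP+ arrays alone (0.000106). The last of these has the limit given for Clec9a. The difference was 1.97 without pre-CD8 replicate 1 (adjusted p = 0.00125) and 0.68 without pre-CD8 replicate 2 (0.397). If the titles hold and the reporter is that of Id2, it had already selected both groups, and this is a difference within the GFP-bright range. The genotype field names a Zbtb46 reporter instead. Zbtb46, a factor of committed conventional dendritic cells, differed by 0.84 ± 0.22 (SE, adjusted p = 0.0884) without passing. Of 35 transcription factors of dendritic cell development, 6 rose and 1 fell, with a median of 0.21. The median was 0.06 without pre-CD8 replicate 2, 0.08 without CDP replicate 1 and 0.12 without pre-CD8 replicate 1.

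Beside Batf3, the risers were Mycn, Mycl, Bcl6 and, picked after their values were seen, Irf5 (0.73 ± 0.16, SE) and Rbpj (0.62 ± 0.12). Mycl, the Myc family member of dendritic cells, rose by 0.93 ± 0.17 (SE, adjusted p = 0.0175) and Mycn by 1.20 ± 0.19 (SE, adjusted p = 0.0109). Bcl6, a repressor that cDC1 need, rose by 0.91 ± 0.15 (SE, adjusted p = 0.014). Zeb2, a repressor of Id2 and a factor of the cDC2, plasmacytoid and monocyte fates, stood at 8.16 and 9.30 in CDP and 6.45 and 7.11 in pre-CD8. Both pre-CD8 arrays were below both CDP arrays, and Zeb2 fell by 1.95 ± 0.16 (SE, adjusted p = 0.000299). Nfil3, which acts early in the cDC1 path, differed by -0.30 ± 0.17 (SE, adjusted p = 0.553) with opposite signs in the pairs, and Tcf4, the E protein of plasmacytoid cells, by -0.06 ± 0.12 (SE, adjusted p = 0.941). Leaving out CDP replicate 2 or pre-CD8 replicate 2 left 1 riser and 1 faller, leaving out CDP replicate 1 left 3 and 2, and the calls of Bcl6 (adjusted p up to 0.201), Mycl (0.215, which also ended without CDP replicate 1) and Mycn (0.0969) ended with either.

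Monocyte and granulocyte genes formed the main lower group. Of 16 monocyte and macrophage markers, 6 fell and 1 (Ccr2) rose, with a median of -0.52. Fn1, fibronectin, had the largest fall of the genes named by size and stood at 10.48 and 10.63 in CDP and 7.83 and 7.10 in pre-CD8. The CDP arrays were nearly equal, both pre-CD8 arrays lay far below them, and the difference was -3.09 ± 0.25 (SE, adjusted p = 0.000241), an 8.53-fold drop. F13a1, a coagulation factor chain made by monocytes, stood at 9.68 and 10.71 in CDP and 7.16 and 7.16 in pre-CD8, with a difference of -3.03 ± 0.23 (SE, adjusted p = 0.000173). Csf1r, the receptor for macrophage colony-stimulating factor and part of the surface definition of CDP, stood at 10.14 and 10.53 in CDP and 8.09 and 7.93 in pre-CD8. Both pre-CD8 arrays were lower, with a difference of -2.33 ± 0.14 (SE, adjusted p = 5.06e-05). Lyz2, lysozyme, fell by 0.84 ± 0.11 (SE, adjusted p = 0.0038) and Cx3cr1, the fractalkine receptor, by 0.60 ± 0.09 (SE, adjusted p = 0.00774). Without CDP replicate 2 the calls of Lyz2 (0.053) and Cx3cr1 (up to 0.0686) ended, as did that of Cx3cr1 without pre-CD8 replicate 2, and the list then held 3 fallers and 4 fallers respectively, with 0 risers.

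Of 18 neutrophil and granule genes, 8 fell and 0 rose, with a median of -0.99, and 17 were lower in both pairs, as 27.4% of all genes were. Ctsg, the granule protease cathepsin G, stood at 9.89 and 11.63 in CDP and 7.60 and 8.45 in pre-CD8. Each pre-CD8 array was below each CDP array, at -2.74 ± 0.17 (SE, adjusted p = 5.06e-05). Mpo, myeloperoxidase, stood at 11.78 and 13.25 in CDP and 10.31 and 10.73 in pre-CD8, and was lower in both pre-CD8 arrays, with a difference of -1.99 ± 0.18 (SE, adjusted p = 0.000498). Prtn3, proteinase 3 of the same granules, fell by 1.87 ± 0.19 (SE, adjusted p = 0.00096) and Mmp8, a collagenase, by 1.39 ± 0.14 (SE, adjusted p = 0.000787). Elane, neutrophil elastase, stood at 9.98 and 12.27 in CDP and 9.56 and 9.88 in pre-CD8. Only the brighter CDP array was far above the other 3, and the difference of -1.41 ± 0.36 (SE, adjusted p = 0.0812) did not pass.

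Of the other members, S100a8 (-0.57), Camp (-0.40) and Ngp (-0.26) did not pass either. At an unadjusted p under 0.05 in the limma fit with the array set, 14 of the 18 were lower and 0 higher. Of all genes 12.2% reached that p in either direction. Csf3r, the granulocyte colony-stimulating factor receptor, fell by 1.10 ± 0.17 (SE, adjusted p = 0.00777) and Ly6g by 1.24 ± 0.21 (SE, adjusted p = 0.0138). The log2 of the summed intensity of the granule list was 15.91 and 16.52 in CDP against 15.37 and 15.58 in pre-CD8. In bulk samples, fewer cells of a type and less RNA per cell cannot be told apart, and the part of admixed granulocyte or monocyte progenitors in these falls was not tested. The granule count was 4 without CDP replicate 2 and 5 without pre-CD8 replicate 2. The call of Csf3r ended without the former (adjusted p = 0.0818) and that of Ly6g without either (0.094).

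Of 3 granule genes whose promoters were searched in the same RefSeq table, Prtn3 and Mpo are shown because they held the PU box. The promoter of Ctsg, which fell too, held CACCTG and no PU box. Both promoters shown lie on the plus strand, at chr10:79879417-79879666 and chr11:87793534-87793783. Capitals mark the PU box GAGGAAGT, searched on both strands.
Prtn3: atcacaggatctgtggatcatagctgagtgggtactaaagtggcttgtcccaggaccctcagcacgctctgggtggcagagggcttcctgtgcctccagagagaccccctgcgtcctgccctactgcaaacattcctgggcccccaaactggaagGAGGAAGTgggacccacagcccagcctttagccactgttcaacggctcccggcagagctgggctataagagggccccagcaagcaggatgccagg
Mpo: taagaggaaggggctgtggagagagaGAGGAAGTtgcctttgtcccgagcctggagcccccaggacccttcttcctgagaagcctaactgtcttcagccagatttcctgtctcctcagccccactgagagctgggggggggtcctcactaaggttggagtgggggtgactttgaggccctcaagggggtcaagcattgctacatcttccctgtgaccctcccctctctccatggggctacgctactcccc
The match lay at bases 95 to 88 before the start in Prtn3 and at 224 to 217 in Mpo, and 2.44% of all promoters in the table held these letters.

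Receptors of myeloid uptake were lower too. Of 20 C-type lectin and phagocytic receptors, 6 fell and 0 rose, with a median of -0.31 (-0.19 without pre-CD8 replicate 1). The list does not hold every lectin: Clec4b1, which rose as given above, is not in it. Clec7a, the receptor for fungal beta-glucan, stood at 7.90 and 8.17 in CDP and 6.47 and 6.76 in pre-CD8. The groups were apart in both pairs alike, with a difference of -1.42 ± 0.15 (SE, adjusted p = 0.00103). Clec10a, a lectin of cDC2 and macrophages, fell by 1.19 ± 0.18 (SE, adjusted p = 0.00819), and Fcgr3, a receptor for antibody, by 0.96 ± 0.16 (SE, adjusted p = 0.0141). Without CDP replicate 2 or pre-CD8 replicate 2 the count was 2 in each case, and the calls of Clec10a (adjusted p up to 0.0973) and Fcgr3 (0.181) ended. Other falls of large size were those of Anxa3, an annexin of granulocytes (-1.74 ± 0.12, SE, adjusted p = 7.54e-05), Cd69, an early activation marker (-1.85 ± 0.15, SE, adjusted p = 0.000244), and Cst7, a cystatin of leukocytes (-1.59 ± 0.16, SE, adjusted p = 0.000776).

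Markers of the cDC2 class did not move as a group. Of 16 measured, 3 fell and 0 rose, and the median was -0.00, which turned to 0.03 with quantile normalisation and 0.06 with interquartile scaling, and ranged from -0.14 to 0.03 with single arrays left out. The 3 were Sirpa, Clec10a and Cx3cr1. Sirpa, an inhibitory receptor that marks cDC2 against cDC1, stood at 10.34 and 10.57 in CDP and 9.08 and 8.88 in pre-CD8. It was lower in both pre-CD8 arrays, with a difference of -1.47 ± 0.15 (SE, adjusted p = 0.000949). The cDC2 regulators Irf4 and Klf4 differed by 0.37 ± 0.14 (SE, adjusted p = 0.281) and 0.44 ± 0.32 (SE, adjusted p = 0.707). Without CDP replicate 2 or pre-CD8 replicate 2 the count was 1, since Clec10a and Cx3cr1 no longer passed (adjusted p up to 0.0973 and 0.0686), and without CDP replicate 1 it was 5. Of 17 plasmacytoid markers 2 rose, against 0.973% of all genes. They were Ccr9 and Irf7, an interferon regulator (1.21 ± 0.24, SE, adjusted p = 0.0297, lost without either CDP array or pre-CD8 replicate 2). Siglech, a defining receptor of plasmacytoid cells, differed by -0.30 ± 0.37 (SE, adjusted p = 0.876).

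Progenitor genes moved in both directions. Of 22 early progenitor genes, 3 fell and 2 rose, with a median of -0.16 (-0.05 without pre-CD8 replicate 1). Cd93, a surface glycoprotein of early progenitors, stood at 10.64 and 10.95 in CDP and 9.22 and 8.88 in pre-CD8. Both pre-CD8 arrays were lower, with a difference of -1.74 ± 0.14 (SE, adjusted p = 0.000173). Cd34, a sialomucin of stem and progenitor cells, fell by 0.86 ± 0.16 (SE, adjusted p = 0.0212), and Erg, a stem cell factor, by 1.13 ± 0.17 (SE, adjusted p = 0.00728). Kit, the stem cell factor receptor, went the other way and stood at 9.87 and 10.89 in CDP and 10.78 and 11.68 in pre-CD8. Replicate 1 of pre-CD8 lay below replicate 2 of CDP, so the groups overlapped, but each pair differed by nearly the same amount and Kit rose by 0.85 ± 0.08 (SE, adjusted p = 0.000776). Flt3, the receptor whose ligand drives dendritic cell development and a marker of these progenitors, lay between 10.73 and 11.53 on the 4 arrays and differed by 0.25 ± 0.09 (SE, adjusted p = 0.215). The calls of Cd34 (adjusted p up to 0.174, without either brighter array) and Erg (0.0799, without pre-CD8 replicate 2) ended when an array was left out. Without CDP replicate 1 the list held 4 risers and 6 fallers, without pre-CD8 replicate 1 it held 3 and 5, without CDP replicate 2 it held 1 and 2, and without pre-CD8 replicate 2 it held 1 and 1.

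Among genes of adhesion and signalling, 4 of 23 integrin and adhesion genes rose (0.973% of all genes did) and 0 fell. Itga4, the alpha chain of an integrin that binds endothelium, stood at 11.53 and 11.72 in CDP and 12.49 and 12.40 in pre-CD8. Both pre-CD8 arrays were above both CDP arrays, and Itga4 rose by 0.82 ± 0.12 (SE, adjusted p = 0.00618). The call of Itga4 ended with interquartile scaling. Of 17 shared conventional dendritic cell markers 2 rose, the costimulatory ligand Cd86 (1.01 ± 0.19, SE, adjusted p = 0.0244) and the peptidase Dpp4 (0.72 ± 0.11, SE, adjusted p = 0.0106), and the integrin Itgax, which encodes CD11c, differed by 0.88 ± 0.36 (SE, adjusted p = 0.331) without passing. Of 20 immediate early and stress genes 3 rose (Btg2, Ier5 and Junb, by 0.71 to 1.04) and 0 fell. Endosome and lysosome genes split, with 2 of 22 higher (Wdfy4 and Rab43) and 3 lower, the oxidase subunit Cybb (-1.22 ± 0.22, SE, adjusted p = 0.0169), the protease Ctsd and the tetraspanin Cd63. Without CDP replicate 2 or pre-CD8 replicate 2 the list held 1 riser and 0 fallers. Of 19 interferon response genes Irf7 rose and Oas1a fell, and of 12 glycolysis genes Pfkp rose and Pgam1 fell. Without either brighter array the calls of Cd86, Dpp4, Btg2, Ier5, Junb, Rab43, Cybb, Oas1a, Pfkp and Pgam1 ended, with adjusted p up to 0.466 for Junb. Other arrays ended some of them too: CDP replicate 1 for Cd86, Btg2, Junb, Rab43, Oas1a and Pfkp, pre-CD8 replicate 1 for Cybb, either Id2-GFP- CDP array for Btg2, Junb and Oas1a, and either Id2-GFP- pre-CD8 array for Junb and Oas1a. Without pre-CD8 replicate 1 there were 5 risers among immediate early genes and 4 among shared conventional markers, 2 risers among interferon genes and 2 fallers among glycolysis genes. The integrin count was 1 without pre-CD8 replicate 2, and 2 without either CDP array or any of the 4 Id2-GFP- arrays.

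Metabolic and structural lists held few calls. Of 16 cholesterol synthesis genes 4 rose and 0 fell, with a median of 0.36, and 13 were higher in both pairs. Of all genes 26.5% were higher in both pairs, a share that also stands beside the actin and class I counts below. Hmgcs1, an early enzyme of the path, rose by 0.82 ± 0.12 (SE, adjusted p = 0.00774) and Srebf2, its transcriptional regulator, by 0.67 ± 0.10 (SE, adjusted p = 0.0084). Without pre-CD8 replicate 2 the count was 0, without CDP replicate 2 it was 1 and without either replicate 1 it was 2. The calls of Hmgcs1 and Srebf2 ended without either brighter array (adjusted p up to 0.101 and 0.118). Of 22 actin genes 19 were higher in both pairs and 2 rose, Tmsb10 and Fgd2, a count that was 5 without pre-CD8 replicate 1, 0 without either brighter array, and 1 when CDP replicate 1 or 1 of the Id2-GFP- CDP arrays was dropped. Of 13 genes of the MHC class I pathway 11 were higher in both pairs and 1 rose, Tapbp, which loads peptides (0.55 ± 0.09, SE, adjusted p = 0.0142, lost without either brighter array, adjusted p up to 0.164). The class I count was 2 without either replicate 1. At an unadjusted p under 0.05 there were 11 higher and 0 lower in each of these 2 lists, against 12.2% of all genes in either direction. Of 25 genes of ribosome biogenesis and 28 of oxidative phosphorylation 0 passed in limma with the array set, and at that unadjusted p there were 0 and 1.

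**Figure D3:**
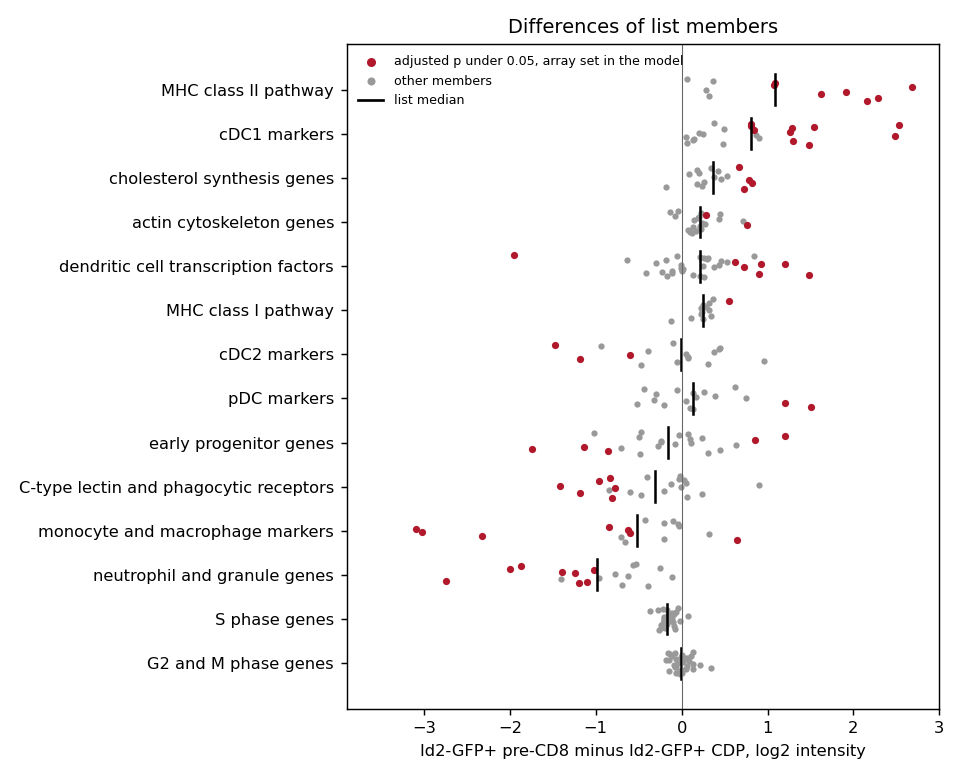
Difference of pre-CD8 from CDP among Id2-GFP+ cells, in log2 intensity, for each measured member of 14 gene lists. Red points passed an adjusted p of 0.05 with the array set in the model, grey points did not, and black bars are list medians, 1.09 for the MHC class II pathway at the top and -0.01 for G2 and M phase genes at the bottom.

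Genes of the cell cycle lists did not pass between the groups. Of 33 G2 and M phase genes, 0 rose or fell among Id2-GFP+ cells, with a median of -0.01, and of 29 S phase genes 0 did, with a median of -0.17. With single arrays left out these medians ranged from -0.07 to 0.06 and from -0.26 to -0.05. Of the S phase genes 18 were lower and 1 higher in both pairs, and of the G2 and M phase genes 11 and 6. Of all genes 27.4% were lower and 26.5% higher in both pairs. The S phase genes thus leaned lower without passing. At an unadjusted p under 0.05 in the same limma fit, 1 G2 and M phase gene was higher and 1 lower, and 4 S phase genes were lower. Top2a, the topoisomerase of dividing cells, stood at 11.25 and 11.66 in CDP and 11.13 and 11.51 in pre-CD8. The replicates of a group differed by more than the groups did, with a difference of -0.13 ± 0.09 (SE, adjusted p = 0.702). Among Id2-GFP- cells, compared on 4 other arrays in the same fit, 33 of the 33 G2 and M phase genes fell from CDP to pre-CD8, with a median of -1.12, and 10 of the 33 with no set in the model. Of all genes, 12.5% passed there, 5.82% higher and 6.65% lower, and 1.63% with no set in the model (1.03% higher and 0.592% lower). The interaction of stage and reporter class, which tests the difference between the 2 comparisons, passed for 31 of the 33 with the array set (7.48% of all genes, 4.09% positive and 3.4% negative) and for 26 to 32 without each array in turn. With no set in the model it passed for 0 of the 33 and for 0.145% of all genes (0.0351% positive and 0.11% negative).

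Several other lists also differed between the 2 reporter classes in the fit with the array set. With no set in the model the interaction passed for 1 of the cDC1 markers (Clec9a, adjusted p = 0.0397), 0 granule genes, 0 early progenitor genes and 4 B lineage markers, and 2 early progenitor genes and 7 B lineage markers rose among Id2-GFP- cells. The counts that follow are those with the set. Of the 21 cDC1 markers 11 had a more positive stage difference among Id2-GFP+ cells by the interaction test with the array set and 0 a more negative one, and the medians were 0.81 and -0.03. Clec9a fell by 3.41 among Id2-GFP- cells and differed by 0.90 among Id2-GFP+ cells, an interaction of 4.31 ± 0.47 (SE, adjusted p = 0.000429). Batf3 differed by 0.09 among Id2-GFP- cells, an interaction of 1.39 (adjusted p = 0.00294). The granule list held 11 genes with a more negative difference among Id2-GFP+ cells and 0 with a more positive one. Of the early progenitor genes 14 rose among Id2-GFP- cells, and the interaction passed for 13 in the negative direction and 1 in the positive. Of 17 B lineage markers 9 rose among Id2-GFP- cells and 1, Fcrla, among Id2-GFP+ cells, with an interaction for 9 in the negative and 2 in the positive direction. Without Id2-GFP- CDP replicate 2 the cDC1 count of interactions was 5. The granule count was 5 to 7 when any of 5 arrays was left out (both Id2-GFP- CDP arrays, and replicate 2 of the other 3 groups), and 7 with interquartile scaling. The early progenitor count among Id2-GFP- cells was 9 without Id2-GFP- CDP replicate 1.

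MHC class II genes rose in both classes, 7 of 11 among Id2-GFP+ cells and 5 of 11 (with 2 lower) among Id2-GFP- cells, but not to the same extent. The interaction passed with the array set for 6 of the 11, 4 positive and 2 negative, and for 0 with no set. H2-Eb1 rose by 2.69 in the first and 1.29 in the second, an interaction of 1.39 ± 0.24 (SE, adjusted p = 0.00593) that ended without Id2-GFP- CDP replicate 2 (0.0555). H2-Ob rose by 1.09 and 2.67, an interaction of -1.58 ± 0.17 (SE, adjusted p = 0.000436) that passed without each of the 8 arrays. The positive count ranged from 1, without Id2-GFP- CDP replicate 2, to 6, without Id2-GFP+ pre-CD8 replicate 1, and was 2 without Id2-GFP+ pre-CD8 replicate 2. H2-Ab1 rose by 1.92 in the first and 1.51 in the second, and the interaction of 0.41 had an adjusted p of 0.23. Of the 414 genes called among Id2-GFP+ cells, 137 were called in the same direction among Id2-GFP- cells, which is 33.1% of the 414 and 5.51% of the 2486 called there. A further 35 were called in the opposite direction and 242 were not called. Of all genes, 5.82% were called higher and 6.65% lower among Id2-GFP- cells with the array set. A gene not called there need not differ between the classes. The interaction itself passed for 195 of the 414, against 7.48% of all genes. That excess was largely set in advance, because the interaction holds the Id2-GFP+ difference by which the 414 were chosen. Csf1r, F13a1, Ctsg, Anxa3 and Clec7a fell in both classes, with differences among Id2-GFP- cells of -1.94, -3.63, -2.08, -1.82 and -2.82.

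**Figure D4:**
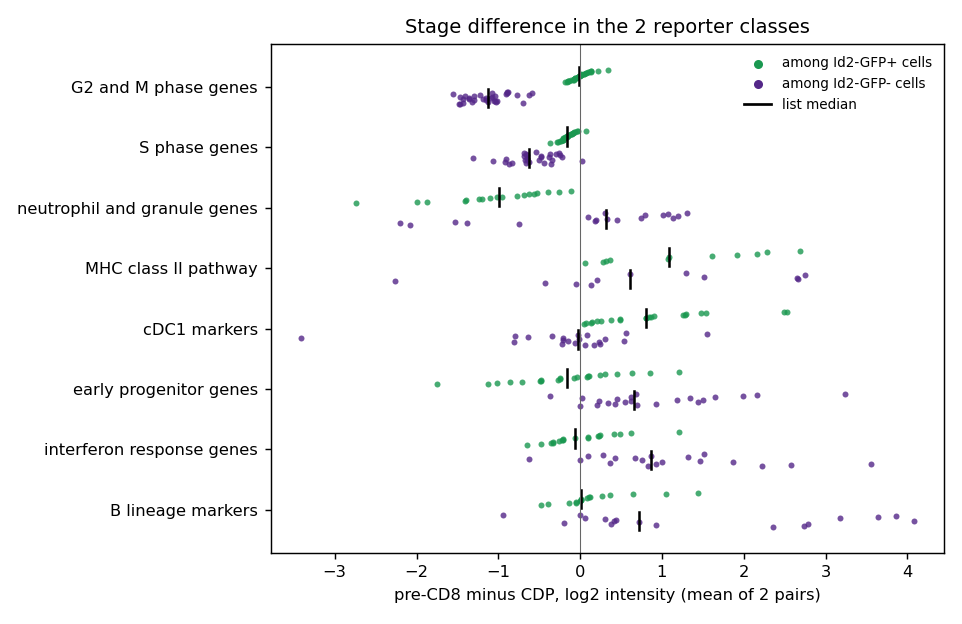
Difference between pre-CD8 and CDP, in log2 intensity, for each member of 8 gene lists among Id2-GFP+ cells (green) and Id2-GFP- cells (purple), with black bars for list medians. The G2 and M phase genes lie around -0.01 in the first class and around -1.12 in the second.

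Markers of other cells a marrow sort could hold were also read, beside 0.973% of all genes higher and 1.1% lower. Of 20 T, NK and ILC markers 1 rose, Gata3, a factor of T and innate lymphoid cells, at 5.40 and 5.61 in CDP and 7.03 and 6.42 in pre-CD8. It differed by 1.22 ± 0.20 (SE, adjusted p = 0.0126), a call that ended without either pre-CD8 array (adjusted p up to 0.0582). Of 11 erythroid and megakaryocyte markers 1 fell, Car1 (-0.69 ± 0.13, SE, adjusted p = 0.0221), lost without CDP replicate 2 or either pre-CD8 array (0.21). Of 14 basophil, mast cell and eosinophil markers Hdc fell by 1.01 ± 0.16 (SE, adjusted p = 0.00938) and Cpa3 rose by 1.55 ± 0.34 (SE, adjusted p = 0.0438). Cpa3 stood at 6.40 and 6.47 in CDP and 8.68 and 7.29 in pre-CD8, so replicate 1 of pre-CD8 stood apart. The Cpa3 call ended without either replicate 1 or either Id2-GFP- CDP array (adjusted p up to 0.247), and the Hdc call without either brighter array (0.101). Xist lay between 12.08 and 12.46 and 3 Y-linked genes between 3.18 and 3.88 on all 4 arrays.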

How the data were processed

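The authors deposited linear intensity values, not logs, for 28853 probe sets. These came from RMA in Affymetrix Expression Console, per the submitters' processing notes, with versions not given in the sources used here. RMA commonly corrects background, normalises between arrays and compresses dim values, so differences of dim genes may be understated, which was not tested here. The deposited arrays still differed in the spread of log2 values, with interquartile ranges from 3.15 to 3.73. They had thus not been brought to a shared distribution, and no further normalisation was applied here. The design had assumed log2 values, so log2 was taken first.

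By the platform annotation 21789 probe sets had 1 symbol, 1621 had several and 5443 had none, and 21698 of the first kind were found in RefSeq by Entrez identifier. Where a gene had several probe sets (999 genes), that of highest mean across the 8 arrays was kept, which left 19938 genes, with no filter on dim genes.

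Tests were made with limma 3.58.1 (R 4.3.3), 1 mean for each of the 4 groups, a variance prior with an intensity trend, two-sided p-values and Benjamini-Hochberg adjustment over all genes, at 0.05. The same fit was run with the array set (the brighter and the dimmer array of each group by mean intensity) as a block, and with the stage by reporter interaction. The first had 4 residual degrees of freedom and the second 3. The fit on the 4 Id2-GFP+ arrays alone with the array set had fewer still, so its p-values lean heavily on the variance prior. The number of arrays limits the precision. Scripts were tested on simulated data. Python 3.11.15 drew the figures and searched promoters.

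Replicate numbers are shared by the labels. In the Id2-GFP+ groups number and brightness coincide, and same-numbered arrays deviated together (r = 0.69), but number 1 is the brighter array in both Id2-GFP- groups (r = -0.68 between the replicate deviations of Id2-GFP+ and Id2-GFP- pre-CD8), so the numbers were not taken as pairs.

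The groups, the lists and the rules were chosen with earlier results of these data known. Genes were named by rule: Id2, then 12 higher and 12 lower genes with the largest smaller pair difference (the brighter group's mean above the median of all genes, predicted genes and receptor families left out), 5 members of each of 32 lists with the smallest p, a set of fixed regulators, and the largest interactions. Other list members and genes with a stated reason were named after their values were seen. Alternatives were quantile normalisation, interquartile scaling, a filter at the median intensity, every probe set, no trend, the 4 arrays alone, log2 0.6 in the pairs, a replicate block, and each array left out. The counts of list members called without each array were added after the data were seen.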

Additional observations from a re-analysis of the deposited data

Results flagged for a closer look

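The stage difference (pre-CD8 minus CDP) differed between the reporter classes for 29 genes by the interaction test of limma with no array set in the model (0.145% of genes), 7 of them more positive and 22 more negative among Id2-GFP+ cells. The count was 2 when any of 5 arrays was left out (both Id2-GFP- CDP arrays, both Id2-GFP+ pre-CD8 arrays, and replicate 2 of the Id2-GFP- pre-CD8 group), 3 without Id2-GFP+ CDP replicate 2, 5 without Id2-GFP- pre-CD8 replicate 1 and 15 without Id2-GFP+ CDP replicate 1. The following differences are the Id2-GFP+ stage difference minus the Id2-GFP- one, on the log2 scale. Clec9a had the largest positive value, 4.31, followed by Ccr2 at 3.22 and Clec4b1 at 2.60. Ccr2 rose by 0.64 among Id2-GFP+ cells and fell by 2.58 among Id2-GFP- cells. The negative values include genes of lymphoid progenitors. Rag1 and Rag2, which cut antigen receptor genes, had values of -4.07 and -3.13, Il7r, the interleukin 7 receptor, -3.28, and the B cell adaptor Bank1 -2.84. Rag1 stood at 5.16 and 5.08 in Id2-GFP+ CDP and 4.84 and 5.42 in Id2-GFP+ pre-CD8, all below the median of all genes, and rose by 4.08 among Id2-GFP- cells. The others were Cmah, an enzyme of sialic acid synthesis, at -3.50, Gimap6 at -3.04, the adaptor Lax1 at -3.27, Myl10 at -3.52 and Socs2, a signalling inhibitor, at -3.41.

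Among probe sets with several symbols or none, which entered no gene test, 8 of 7064 differed by log2 1 or more in the same direction in both Id2-GFP+ pairs, 4 higher and 4 lower in pre-CD8.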

How the results depend on the processing

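With 2 arrays a group, the counts of calls varied widely. None of the 82 named genes that passed with the array set was reversed in the up to 14 alternatives run for each. That was largely set in advance, because these genes had the same sign in both pairs. Only the 2 scalings and the loss of an Id2-GFP+ array can change the difference at all. Interquartile scaling ended the calls of 8 named genes, among them Itga4, Ccr2, Tapbp, Tmsb10, Pgam1 and Cpa3. Quantile normalisation ended those of 3, among them Cpa3. With no array set in the model, the Id2-GFP+ count of 0 became 24 with quantile normalisation, 34 with interquartile scaling and 10 among genes above the median intensity, and ranged from 0 to 1 over single arrays left out. The Id2-GFP- count of 324 became 858 and 698 with the 2 scalings and ranged from 77 to 326 over arrays left out. The interaction count of 29 became 202 and 145, and ranged from 2 to 15. With the array set, the Id2-GFP+ count of 414 ranged from 111 to 583 over arrays left out and was 731 on the 4 Id2-GFP+ arrays alone. The Id2-GFP- count of 2486 ranged from 1137 to 2779, and the interaction count of 1492 from 648 to 1459. The replicate number as a block, alone or in place of the array set, gave 0 calls among Id2-GFP+ cells, 157 among Id2-GFP- cells and 6 for the interaction. At log2 0.6 in both pairs 320 genes passed in place of 85. The pair count cannot lose an array, since that removes a pair, and the alternative with every probe set was run for counts of calls only. The causes were not tested. Of 82 named genes that passed with the array set, 33 passed without each of the 8 arrays in turn, and 42 were lost without Id2-GFP+ CDP replicate 2 and 42 without Id2-GFP+ pre-CD8 replicate 2. No background measure was used, so the precision of dim genes is unknown.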

Other observations

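Other genes past log2 1 in both Id2-GFP+ pairs were picked after their values were seen. On the higher side, Ptgdr2, a prostaglandin receptor, stood at 6.62 and 6.60 in CDP (replicates 1 and 2) and 8.07 and 8.62 in pre-CD8. Ckb, the brain form of creatine kinase, stood at 7.41 and 7.37 against 8.90 and 8.85. Both were nearly equal between replicates of CDP and clearly higher in both pre-CD8 arrays. Il12rb2, a chain of the interleukin 12 receptor, was higher by 1.44, the aminopeptidase Anpep by 1.63, the nucleotide receptor P2ry6 by 1.45, the inhibitory ligand Cd200 by 1.55 and the dendritic cell factor Zfp366 by 1.27. On the lower side, Tnfsf13b, the B cell survival factor BAFF, stood at 8.0 and 8.14 in CDP and 6.76 and 6.79 in pre-CD8. The granulocyte GTPase Rab44 differed by -1.63, the nucleotide receptor P2ry2 by -1.56, the inhibitory receptor Lilrb4a by -1.46, the membrane protein Ifitm6 by -1.36, the chemokine Ccl9 by -1.14 and the protease inhibitor Slpi by -1.13.

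Some genes were large in 1 pair alone and were also picked for that. Mucl2, a mucin-like gene, stood at 9.24 on CDP replicate 2 and between 4.01 and 4.27 on the other 3 arrays, and Scgb1b27, a secretoglobin, at 8.46 there and between 5.44 and 5.95 on the others. Prg2, an eosinophil granule protein, stood at 5.82 on pre-CD8 replicate 1 and between 9.13 and 9.85 on the others. Il2rb, a chain of the interleukin 2 receptor, stood at 9.28 on pre-CD8 replicate 1 and between 7.38 and 7.94 on the others.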
